A study of Bos taurus with 8 samples.

Results

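The genes described here were 8 members of the transforming growth factor beta superfamily and its partners: INHBA (ENSBTAG00000048508), FST (ENSBTAG00000003329), MSTN (ENSBTAG00000011808), TGFB1 (ENSBTAG00000020457), TGFB2 (ENSBTAG00000005359), TGFB3 (ENSBTAG00000012004), BMP4 (ENSBTAG00000003835) and TGFBR3 (ENSBTAG00000024269). They were chosen by symbol, as 8 of the 21880 genes of the deposited tables, and each symbol matched 1 gene. Cells came from the semitendinosus muscle of 10 Belgian Blue cattle, calves and adults of both sexes, and were sequenced as 5 single-cell libraries in which the donors were pooled and told apart by genotype. Timepoint 1 was muscle directly after dissociation (10 donors). Timepoint 2 was passage 0, after 72 h on fibronectin (9 donors), and the other timepoints were passages 2, 5 and 8 (9 donors each). All cultures were in serum-free growth medium. Before passaging, cells of 3 donors were sorted by FACS to satellite cells (SCs, the muscle stem cells) and grown on laminin-521, cells of 3 donors were sorted to fibro-adipogenic progenitors (FAPs) and grown on collagen I, and cells of 3 donors were left unsorted on fibronectin. No cell received a treatment or a genetic change, and calves and adults were not compared, since groups were taken from the sample labels and cell tables, which give age for no single donor, and not from the animal table of the study. Each timepoint was 1 library, so timepoint and library cannot be told apart, and neither can the sort and the coating in the sorted cultures. Between passage 0 and passage 2 the cells of these cultures were sorted and changed coating, which cannot be told apart from passaging.

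Ligands of this family are secreted dimers that bring type I and type II receptor kinases together, and the receptors phosphorylate SMAD proteins. TGF-beta ligands, activins and myostatin signal mainly through SMAD2 and SMAD3, and bone morphogenetic proteins through SMAD1, SMAD5 and SMAD9. In muscle, myostatin restrains growth, TGF-beta ligands hold back myogenic differentiation and drive matrix production by fibroblastic cells, and follistatin binds and neutralises activins and myostatin. Belgian Blue is a double-muscled breed that carries an inactivating deletion in MSTN; the MSTN genotype of these donors is not given in the sources used here.

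After the authors' filters the libraries held 36129 cells, between 2772 and 10405 each, with 11 annotated cell types. Depth differed between timepoints: the median was 4184 UMIs (unique molecular identifiers, counts of distinct transcripts) per cell in muscle and 18340 to 27240 in culture. Of 36000 distinct barcodes, 129 occurred in more than 1 library. The annotated types were checked against 36 marker genes, of which 33 were highest in their own type in muscle, 21 of 23 at passage 0 and 6 or 7 of 7 at passages 2, 5 and 8. All levels below are CPM, the UMIs of a gene per 1000000 UMIs of all cells of a type in 1 donor, over donors with at least 10 such cells. A gene was called changed at an edgeR adjusted p under 0.05 and a change over 1 on the log2 scale. Cell types were annotated by the authors from the same expression values, so differences between types within a timepoint are described without a test.

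In muscle the ligand genes were spread over different cell types, and in FAPs most of them fell within 72 h of culture. TGFB2, BMP4 and the co-receptor gene TGFBR3 were lower at passage 0 in FAPs, in SCs and also in vascular endothelial cells (VECs), with log2 fold changes between -3.56 and -2.21. INHBA and FST were not called in FAPs, and were near 0 in muscle SCs. By passage 2 BMP4 rose again in both cell types, and INHBA and FST rose in SCs to means of 75.9 and 149.9 CPM, beside 84.4 and 124.6 CPM in FAPs. MSTN was close to undetected in the cell types with enough cells for a level.

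**Figure D1:**
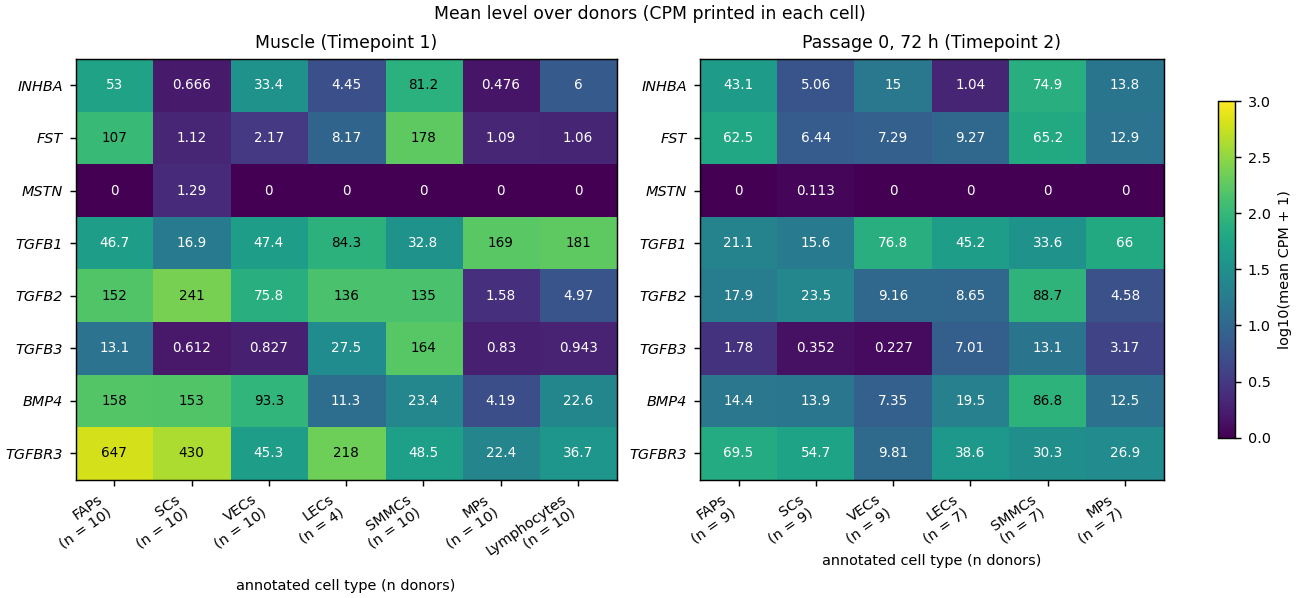
Mean CPM of each of the 8 genes in the cell types of muscle and of passage 0 that had values from more than 1 donor, averaged over donors. The printed numbers are the means and the colour is the log10 of the mean plus 1, brighter when higher. TGFBR3 has its brightest cells in FAPs (647 CPM) and SCs (429.8 CPM) of muscle, and the row for MSTN stays at or near 0.

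By cell type, the members called from muscle to passage 0 were all lower. In FAPs 5 of 7 tested members were called (4 by DESeq2), beside 43.4% of all genes tested, of which 22.5% were called lower. In SCs 3 of 3 were called, beside 34.3% of genes called and 18.5% called lower, and in VECs 3 of 4, beside 35.1% and 19.6%. In SMMCs 2 of 4 were called, beside 36.4% and 21.3%, in MPs 1 of 1, beside 34.6% and 20.4%, and in LECs 2 of 3, beside 29.6% and 14.8%. A member untested in a type had not passed the filter on low counts there. That filter can keep a gene for 1 high group alone. For example, TGFB3 in FAPs and SMMCs, BMP4 and TGFB2 in SCs, and BMP4, TGFB2 and TGFBR3 in VECs, passed it through muscle, where they were higher. INHBA and FST in SCs and BMP4 in SMMCs, higher at passage 0 in most donors, did not pass. These counts therefore give no result on the direction of the members as a set. From passage 0 to passage 2, 3 of 7 members were called in FAPs, beside 23.3% of genes called and 13.6% called higher, and 3 of 6 in SCs, beside 8.73% and 5.49%, all of them higher. INHBA in SCs passed the filter there through passage 2, where it was high, so these counts likewise give no result on direction. Between passage 2 and later passages few genes of any kind were called. In FAPs 0 of 7 members were called by edgeR at passage 5 (2 at an unadjusted p under 0.05, 0 by DESeq2), beside 3.34% of all genes, and 0 of 7 at passage 8 (2 at an unadjusted p under 0.05, 1 by DESeq2), beside 1.12%. In SCs 1 of 6 was called at passage 5, beside 0.195%. Donor as a block raised the number of genes called in SCs at passage 5 from 21 to 246 and in FAPs at passage 8 from 124 to 217. TMM scaling moved every log2 change in FAPs by 0.12 from muscle to passage 0, by 0.15 from passage 0 to passage 2 and by 0.11 from passage 2 to passage 5 relative to the plain CPM, and by -0.17 in the sorted cultures; no other comparison moved by over 0.1. A lower CPM was a lower share of all UMIs, and the median UMIs per cell rose from 4184 in muscle to 19375 at passage 0. A fall in CPM is therefore not by itself a fall in the UMIs of a gene per cell. A lower share in each cell and a smaller share of expressing cells cannot be told apart in these sums.

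**Figure D2:**
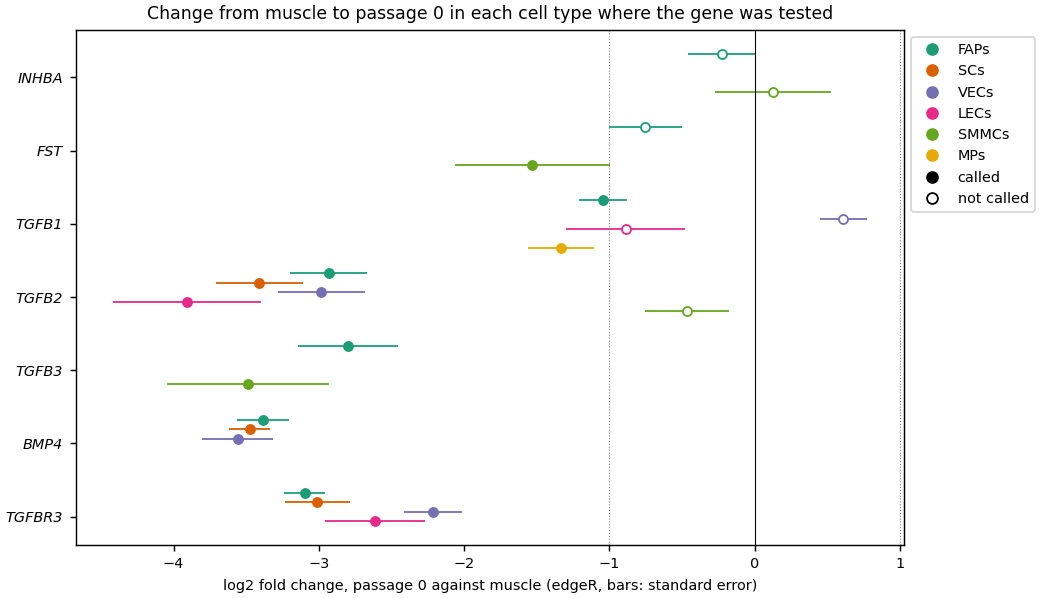
Log2 fold change from muscle to passage 0 of each tested gene in each cell type, with bars of 1 SE; filled points were called and dotted lines mark a change of 1. BMP4, TGFB2 and TGFBR3 lie between -3.91 and -2.21 in FAPs, SCs, VECs and LECs wherever tested, TGFB2 in SMMCs lies at -0.47, and INHBA in FAPs and SMMCs lies near 0.

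INHBA encodes the subunit whose dimer is activin A. In muscle it was found in smooth muscle and mesenchymal cells (SMMCs) at 81.2 ± 57.4 CPM (SD, n = 10 donors) and in FAPs at 53.0 ± 19.3 CPM (n = 10), where the lowest, median and highest donors had 16.0, 53.1 and 89.5 CPM. VECs averaged 33.4 CPM but ranged from 0 to 154 CPM with a median of 10.8 CPM. Lymphocytes (6.00 CPM), lymphatic endothelial cells (LECs, 4.45 CPM), SCs (0.666 CPM) and monocytes/macrophages (MPs, 0.476 CPM) followed, and no neighbours in this order differed by more than the larger of their SDs. In muscle SCs the mean rested on 3 UMIs, all in donor 6, and the other 9 donors had none. At passage 0 the order was SMMCs (74.9 ± 27.1 CPM, n = 7), FAPs (43.1 ± 13.1 CPM, n = 9), VECs (15.0 CPM), MPs (13.8 CPM), SCs (5.06 CPM) and LECs (1.04 CPM). VECs and MPs, and MPs and SCs, did not differ beyond their spread there.

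FST encodes follistatin, the secreted inhibitor of activin. In muscle it was found in the same types as INHBA, with 178 ± 162 CPM in SMMCs (lowest 0, median 126, highest 498; n = 10) and 107 ± 39.2 CPM in FAPs (57.3, 94.8 and 183; n = 10). The levels of the other types were 8.17 CPM in LECs, 2.17 CPM in VECs, 1.12 CPM in SCs, 1.09 CPM in MPs and 1.06 CPM in lymphocytes, and the step from FAPs to LECs was the only one in this order that exceeded the spread. At passage 0 SMMCs (65.2 ± 30.5 CPM, n = 7) and FAPs (62.5 ± 24.9 CPM, n = 9) had nearly the same level. All other types were between 6.44 CPM (SCs) and 12.9 CPM (MPs), and 1 donor gave the MP mean most of its size.

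From muscle to passage 0, neither INHBA nor FST was called in FAPs. INHBA changed by -0.22 in log2 (SE 0.23, edgeR adjusted p = 0.388), and the passage 0 donors (16.6 to 53.1 CPM) lay inside the muscle range. FST changed by -0.75 (SE 0.25, adjusted p = 0.0101), under the fold threshold, and was lower in 7 of 9 donors. In SMMCs FST fell by 1.53 on the log2 scale (SE 0.54, adjusted p = 0.0177, lower in 5 of 7 donors), with groups that overlapped, and without a filter on low counts the call was lost (-1.29, adjusted p = 0.0720). INHBA in SMMCs moved by 0.13 (SE 0.40, adjusted p = 0.792). Both genes were too low for the edgeR test in SCs, VECs, MPs and LECs.

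In SCs the means of both genes at passage 0 were low and lay above those of muscle, but neither difference passed an adjusted test. FST was higher at passage 0 in 9 of 9 donors (1.25 to 6.44 CPM on average, pooled count ratio 5.04, 95% interval 1.95 to 18.6) and INHBA in 8 of 9 (0.740 to 5.06 CPM, ratio 5.69, interval 1.92 to 27.8). The intervals cover counting error only. Exact two-sided sign-flip permutation tests over the 9 donors gave p = 0.00391 for FST, the smallest possible, and p = 0.00781 for INHBA, both with adjusted p = 0.0664 over 17 gene and type pairs that edgeR had filtered out. Markers of FAPs moved the same way: the sum of PDGFRA, DCN and LUM in SCs ranged from 51.5 to 843 CPM in muscle and from 973 to 2009 CPM at passage 0, with 0 of 3 markers absent, against 2829 to 4432 CPM in FAPs at passage 0. Their part in the result was not tested. In MPs the same sum went from 10.3 to 466.5 CPM in muscle to 881 to 1918 CPM at passage 0, and INHBA and FST had count ratios of 20.3 (interval 4.96 to 178) and 9.01 (3.66 to 26.6) there. These 2 ratios pool all donors, also those with under 10 MPs, on 21 INHBA and 28 FST UMIs at passage 0. Donors with at least 10 MPs held 14 and 16 of them, and 14 of the FST UMIs were in donor 10. INHBA was higher in 6 of 7 donors with MPs (exact sign-flip permutation p = 0.0312, adjusted p = 0.177) and FST in 3 of 7 (p = 0.375, adjusted p = 0.580). In VECs the sum was 39.6 to 814 CPM in muscle and 237 to 499 CPM at passage 0, and the count ratios were 0.629 for INHBA (0.486 to 0.817) and 2.17 for FST (1.18 to 4.38). INHBA was higher in 4 of 9 donors with VECs (exact sign-flip permutation p = 0.801, adjusted p = 0.851) and FST in 6 of 9 (p = 0.0742, adjusted p = 0.221).

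The difference between cell types in the change from muscle to passage 0 was fitted over both types together. Of the 6 members in each of these fits 3 were called (3 by DESeq2), beside 39.8% of all genes for FAPs against SCs and 47.5% for FAPs against VECs. The FAP change minus the SC change was -3.17 in log2 for FST (SE 0.90, edgeR adjusted p = 0.00467) and -2.78 for INHBA (SE 1.11, adjusted p = 0.0439), and INHBA was not past the threshold with donor as a block (adjusted p = 0.0785) or with no filter (0.0854). Both genes were below the filter in SCs alone and entered the fit through FAPs, where they are high. The SC side rested on 4 FST UMIs and 3 INHBA UMIs in all muscle SCs, so these calls support nothing further here. Against VECs the difference was 0.50 for INHBA (SE 0.73, adjusted p = 0.608) and -1.94 for FST (SE 0.80, adjusted p = 0.0440; 0.0609 with donor as a block and 0.0975 with no filter), and FST had likewise entered through FAPs, with 12 UMIs in muscle VECs. Members that had passed the filter in both types alone numbered 3 for FAPs against SCs, of which 0 were called, and 4 for FAPs against VECs, of which 2 were called (TGFB1 and TGFBR3, the latter through muscle in VECs). This narrower count was made after the values were seen.

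INHBA and FST both rose in SCs between passage 0 and passage 2. In the 3 sorted SC cultures INHBA in SCs went from 1.35, 5.50 and 8.05 CPM to 48.6, 50.1 and 52.1 CPM, and in the 3 unsorted cultures from 2.17, 3.82 and 4.27 CPM to 86.5, 108 and 109.8 CPM. No passage 2 value overlapped a passage 0 value, and the change was 4.03 in log2 (SE 0.38, adjusted p = 2.1e-05, higher in 6 of 6 donors). INHBA had passed the filter on low counts through passage 2, where it was high. FST in SCs went from 4.39, 8.99 and 9.86 CPM to 97.1, 250.1 and 273 CPM in the sorted SC cultures and from 3.26, 4.54 and 4.68 CPM to 80.5, 99.2 and 99.7 CPM in the unsorted ones. That was a change of 4.52 (SE 0.40, adjusted p = 1.4e-05, higher in 6 of 6 donors), again with no overlap. Of all cells in the sorted SC cultures at passage 2, 98.3% to 99.4% were annotated as SCs, and the rise was present in each of them. The sum of the 3 FAP markers in those SCs was 1168 to 2758 CPM, against 2669 to 6229 CPM in SCs of the unsorted cultures.

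In FAPs the same step was smaller, a difference between the types that was not tested. INHBA went from 49.8 CPM at passage 0 to 84.4 ± 18.3 CPM at passage 2 (lowest 65.4, highest 115; n = 6), with no overlap between groups and a rise in 6 of 6 donors, but the change of 0.91 (SE 0.11, adjusted p = 9.3e-06) was under the fold threshold. FST went from 71.2 CPM to 124.6 ± 48.9 CPM (50.1 to 179), a change of 0.97 (SE 0.30, adjusted p = 0.0121, higher in 5 of 6 donors), also under it.

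INHBA in SCs was higher again at passage 5. At passage 5 the 6 donors had 153 to 192 CPM (mean 173.6 ± 13.7), all above the passage 2 donors, with a change of 1.195 (SE 0.23, adjusted p = 0.0355, higher in 6 of 6). The call was lost when all donors were thinned to the smallest UMI total (1.15, adjusted p = 0.0586). At passage 8 only 4 donors had 10 or more SCs, and INHBA was 104, 164, 309.5 and 381 CPM in them; passage 8 SCs entered no test. FST in SCs was 214 ± 83.6 CPM at passage 5 (106 to 339), overlapping passage 2, with a change of 0.51 (SE 0.36, adjusted p = 0.4585), and 374.9 ± 104 CPM at passage 8 (n = 4).

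FST in FAPs had the largest tested change of a member between passage 2 and a later passage. The 6 donors had 228.8 ± 100.3 CPM at passage 5 (104 to 387) and 310.0 ± 157.5 CPM at passage 8 (116 to 525), and FST was above its passage 2 level in 6 of 6 donors at both times. The changes of 0.98 at passage 5 (SE 0.35, adjusted p = 0.0674) and 1.29 at passage 8 (SE 0.38, adjusted p = 0.108) were not called. With donor as a block, the passage 8 change was 1.24 (adjusted p = 0.0103), and DESeq2 gave 1.28 (adjusted p = 0.0138), both past the thresholds. The type of culture moved with the level: FAPs of the unsorted cultures averaged 164.1, 306.3 and 364.4 CPM at passages 2, 5 and 8, and FAPs of the sorted FAP cultures 85.1, 151.3 and 255.5 CPM (3 donors each, not tested). INHBA in FAPs was 68.0 CPM at passage 5 and 118.5 ± 30.3 CPM at passage 8, without a call.

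**Figure D3:**
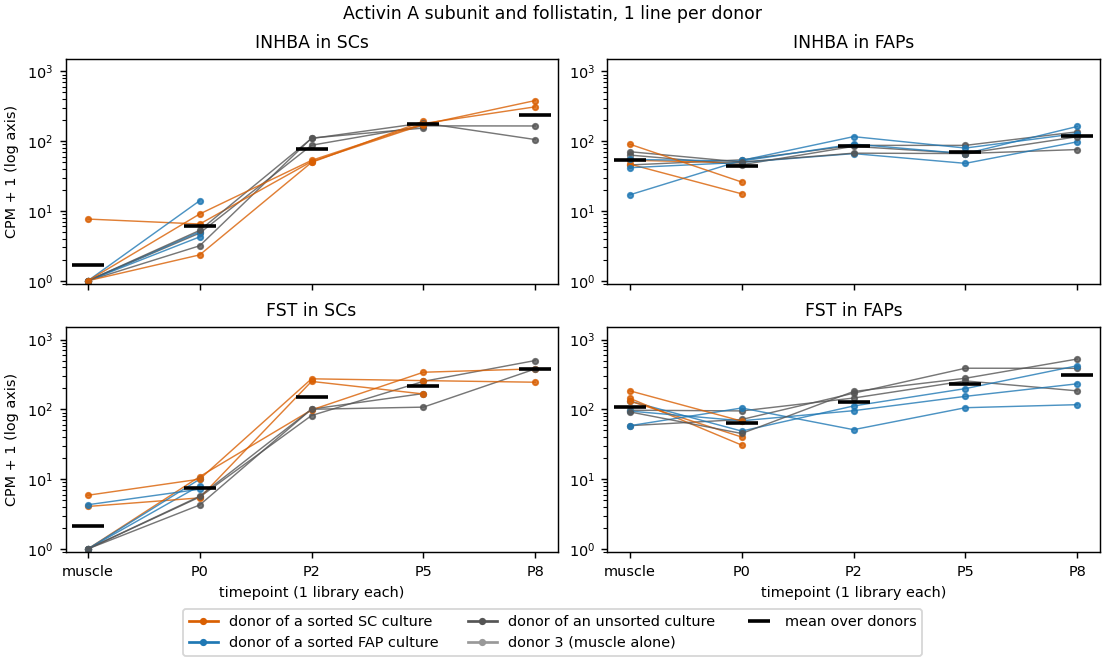
INHBA and FST in SCs and FAPs from muscle to passage 8, as CPM plus 1 on a log axis; each line is a donor coloured by its culture and black bars are means. Passaged SCs are those of SC and unsorted cultures and passaged FAPs those of FAP and unsorted cultures. In SCs of the 6 donors followed to passage 2, both genes step from at most 9.86 CPM at passage 0 to between 48.6 and 273 CPM, while FAPs hold both genes at every timepoint.

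MSTN encodes myostatin, which the muscle lineage itself makes. All cells and timepoints together held 95 MSTN UMIs, of which 88 were in SCs, and it passed the filter for no comparison. Muscle SCs had 3 UMIs, 1 in each of 3 donors (2.22, 3.30 and 7.35 CPM), and none in the others. FAPs of muscle had 0 of 7723469 UMIs, which allows a level of up to 0.388 CPM, and the limits were 0.733 CPM in VECs and 1.16 CPM in MPs, also with 0 UMIs. Myocytes of muscle, under 10 cells in every donor, held 1 MSTN UMI, in donor 7 (6 cells). Their level is not known from so few cells. In SCs MSTN was 0.113 CPM at passage 0 (4 UMIs), 0.668 CPM at passage 2 (62 UMIs, 0 to 1.79 CPM) and 0.421 CPM at passage 5 (14 UMIs). At passage 8 donor 10 held all 3 UMIs (3.81 CPM), and the other 3 donors had none. The passage 2 level was above that of passage 0 in 5 of 6 donors, with overlapping ranges, and no test over the passages was run. MYOG, a transcription factor of differentiating myoblasts, was used to split SCs after the values had been seen. Over SCs of all cultures at passage 2, the 654 with a MYOG UMI held 39 MSTN UMIs (2.26 CPM) and the 3325 without one held 25 (0.295 CPM), with a median of 24618 and 23762 UMIs per cell. Of the 39 UMIs, 21 were in donor 5, while the 129 MYOG-positive cells of donor 10 had none, and a single cell at passage 2 held up to 10 MSTN UMIs. The level was higher with MYOG in 4 of 7 donors, lower in donors 4 and 10, and 0 on both sides in donor 1 (exact sign-flip permutation p = 0.125). At passage 5 the counts were 10 UMIs in 580 cells (0.748 CPM) and 4 in 3006 cells (0.0631 CPM). In muscle and at passage 0 the cells with a MYOG UMI (84 and 18) had 0 MSTN UMIs, and the others 3 and 4. At passage 8 the 41 cells with MYOG held 2 UMIs (5.06 CPM) and the 115 without held 1 (0.445 CPM).

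TGFB1 was highest in muscle in lymphocytes (180.7 ± 47.4 CPM) and MPs (168.9 ± 30.1 CPM, n = 10 each), which did not differ beyond their spread. LECs (84.3 CPM, n = 4), VECs (47.4 ± 16.6 CPM), FAPs (46.7 ± 16.5 CPM), SMMCs (32.8 CPM) and SCs (16.9 ± 11.5 CPM) followed. Within 72 h TGFB1 fell in MPs and FAPs. MPs went from 118, 174 and 207 CPM (lowest, median, highest) to 0, 71.7 and 117 CPM (n = 7), with no overlap, a change of -1.33 (SE 0.23, adjusted p = 9.5e-06). The sum of FAP markers in MPs rose over the same step, as given above, and its part in this fall was not tested. FAPs went from 27.8, 40.7 and 81.2 CPM to 15.0, 22.6 and 27.8 CPM, so that the groups touched at 27.8 CPM, with 9 of 9 donors lower and a change of -1.04 (SE 0.17, adjusted p = 3.7e-06) that sat at the fold threshold and fell short of it with donor as a block (-0.96), in DESeq2 (-0.997) and with no filter (-0.77). VECs moved the other way, from 47.4 to 76.8 ± 17.0 CPM (52.5 to 99.1, n = 9), a change of 0.61 (SE 0.16, adjusted p = 0.00132, higher in 6 of 9 donors) that was under the fold threshold. The difference between the changes in FAPs and VECs was -1.71 (SE 0.24, adjusted p = 8.6e-08), and TGFB1 had passed the filter in both types. The difference between FAPs and SCs was -0.98 (SE 0.34, adjusted p = 0.0177), where TGFB1 was below the filter in SCs alone (49 UMIs in muscle SCs) and had entered the fit through FAPs. In LECs the change of -0.89 (SE 0.41, adjusted p = 0.0820) was called only with donor as a block (-1.27, adjusted p = 0.0438). In passaged cells TGFB1 stayed between 14.2 and 20.2 CPM in FAPs and between 22.2 and 36.2 CPM in SCs, and no change between passages was called.

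TGFB2 was highest in muscle in SCs, at 241 ± 58.3 CPM (158, 267.5 and 306; n = 10), followed by FAPs at 151.7 ± 32.9 CPM, with a gap that exceeded the spread. LECs (136 CPM), SMMCs (135.0 CPM) and VECs (75.8 CPM) came next, and lymphocytes (4.97 CPM) and MPs (1.58 CPM) last. At passage 0 the SC donors had 8.69, 17.4 and 63.4 CPM, the FAP donors 6.67, 18.5 and 32.5 CPM and the VEC donors 0, 7.55 and 20.5 CPM. The changes were -3.41 in SCs (SE 0.30, adjusted p = 3.9e-09), -2.93 in FAPs (SE 0.26, adjusted p = 3.3e-09) and -2.98 in VECs (SE 0.30, adjusted p = 5.2e-09). LECs changed by -3.91 (SE 0.51, adjusted p = 4.2e-07). In none of these types did a passage 0 donor reach the muscle range. SMMCs differed from them in the size of the change, with 135.0 and 88.7 CPM and a change of -0.47 (SE 0.29, adjusted p = 0.154); this difference between types was not tested. In FAPs TGFB2 rose from 15.2 CPM to 30.5 CPM (11.4 to 47.9) at passage 2, a change of 1.18 (SE 0.40, adjusted p = 0.0176, higher in 5 of 6 donors) that was not past the threshold with donor as a block (1.24, adjusted p = 0.0545). In SCs it was 31.6 CPM at passage 2, with a change of 0.27 (adjusted p = 0.754).

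TGFB3 had its highest mean in SMMCs, which include the mural cells of vessels. The step from SMMCs to LECs did not exceed the spread in muscle or at passage 0. In muscle SMMCs had 163.5 ± 145 CPM (lowest 9.58, median 147 and highest 519, n = 10), LECs had 27.5 CPM and FAPs 13.1 ± 7.54 CPM, and the other types were under 1 CPM. At passage 0 SMMCs had 2.63, 11.9 and 23.6 CPM (n = 7), a change of -3.49 (SE 0.56, adjusted p = 3.1e-05, lower in 7 of 7 donors), with groups that overlapped. FAPs had 1.09, 1.34 and 3.95 CPM against 4.65, 11.6 and 25.4 CPM in muscle, with no overlap and a change of -2.80 (SE 0.34, adjusted p = 7.8e-08). In both types TGFB3 had passed the filter on low counts through muscle, where it was higher. It stayed between 1.18 and 1.73 CPM in passaged FAPs, with a change of -0.02 from passage 0 to passage 2.

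BMP4, a bone morphogenetic protein, had nearly the same level in muscle in FAPs (158 ± 37.8 CPM; 117, 145 and 213) and SCs (152.7 ± 33.1 CPM; 106.5, 151 and 217). VECs had 93.3 ± 32.2 CPM and SMMCs 23.4 ± 11.1 CPM, each step beyond the spread, and lymphocytes (22.6 CPM), LECs (11.3 CPM) and MPs (4.19 CPM) were lowest. At passage 0 the FAP donors had 9.17, 12.6 and 21.4 CPM, the SC donors 9.78, 14.1 and 17.2 CPM and the VEC donors 0, 8.65 and 11.7 CPM, all under every muscle donor of the same type. The changes were -3.38 in FAPs (SE 0.18, adjusted p = 7.0e-14), -3.48 in SCs (SE 0.14, adjusted p = 1.1e-16) and -3.56 in VECs (SE 0.24, adjusted p = 1.4e-12). The difference between FAPs and SCs in this change was -0.12 and that between FAPs and VECs 0.12, and neither passed the threshold. In SMMCs, where the gene was below the filter, 5 of 7 donors were higher at passage 0, with means of 23.1 and 86.8 CPM (exact sign-flip permutation p = 0.0781, adjusted p = 0.221).

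BMP4 then rose in both passaged cell types. FAPs went from 14.0 CPM at passage 0 to 51.2, 71.8 and 83.2 CPM at passage 2 (lowest, median, highest of 6), a change of 2.43 (SE 0.19, adjusted p = 1.7e-07), and SCs from 14.1 CPM to 38.4, 45.5 and 56.4 CPM, a change of 1.72 (SE 0.16, adjusted p = 1.2e-05). All 6 donors rose in each type and no groups overlapped, and all passage 2 values were below the lowest muscle donor of the same type. Means at passages 5 and 8 were 70.5 and 79.5 CPM in FAPs and 73.0 and 81.0 CPM in SCs. The SC change from passage 2 to passage 5, 0.64 (SE 0.21, adjusted p = 0.1397, higher in 6 of 6 donors), was not called.

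TGFBR3 encodes betaglycan, a membrane co-receptor that presents TGF-beta ligands, the TGFB2 product above all, to the signalling receptors and also binds inhibin. In muscle it was 647 ± 159.9 CPM in FAPs (383, 705 and 882) and 429.8 ± 142.5 CPM in SCs (199.8, 457 and 624), then 218 CPM in LECs and 48.5 CPM in SMMCs, each step beyond the spread. VECs (45.3 CPM), lymphocytes (36.7 CPM) and MPs (22.4 CPM) had similar low levels. At passage 0 FAPs had 58.1, 71.2 and 85.7 CPM, SCs 28.9, 57.6 and 79.7 CPM and VECs 5.45, 9.80 and 16.1 CPM, below every muscle donor of the type. The changes were -3.10 in FAPs (SE 0.14, adjusted p = 2.6e-15), -3.01 in SCs (SE 0.22, adjusted p = 1.6e-10) and -2.21 in VECs (SE 0.20, adjusted p = 8.1e-11). LECs changed by -2.61 (SE 0.34, adjusted p = 5.1e-07). The fall in FAPs exceeded that in VECs (difference -0.94, SE 0.25, adjusted p = 0.00206) and its difference from that in SCs, -0.31, did not pass the threshold. In VECs the gene had passed the filter through muscle, where it was high. At passage 2 FAPs had 150.3 ± 34.4 CPM (123 to 217, n = 6), up by 1.26 (SE 0.13, adjusted p = 2.2e-06) with no overlap, and SCs 83.5 ± 56.7 CPM (34.1 to 170.1), with a change of 0.58 (SE 0.39, adjusted p = 0.283). It was 156.9 and 135 CPM in FAPs and 52.0 and 62.9 CPM in SCs at passages 5 and 8.

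**Figure D4:**
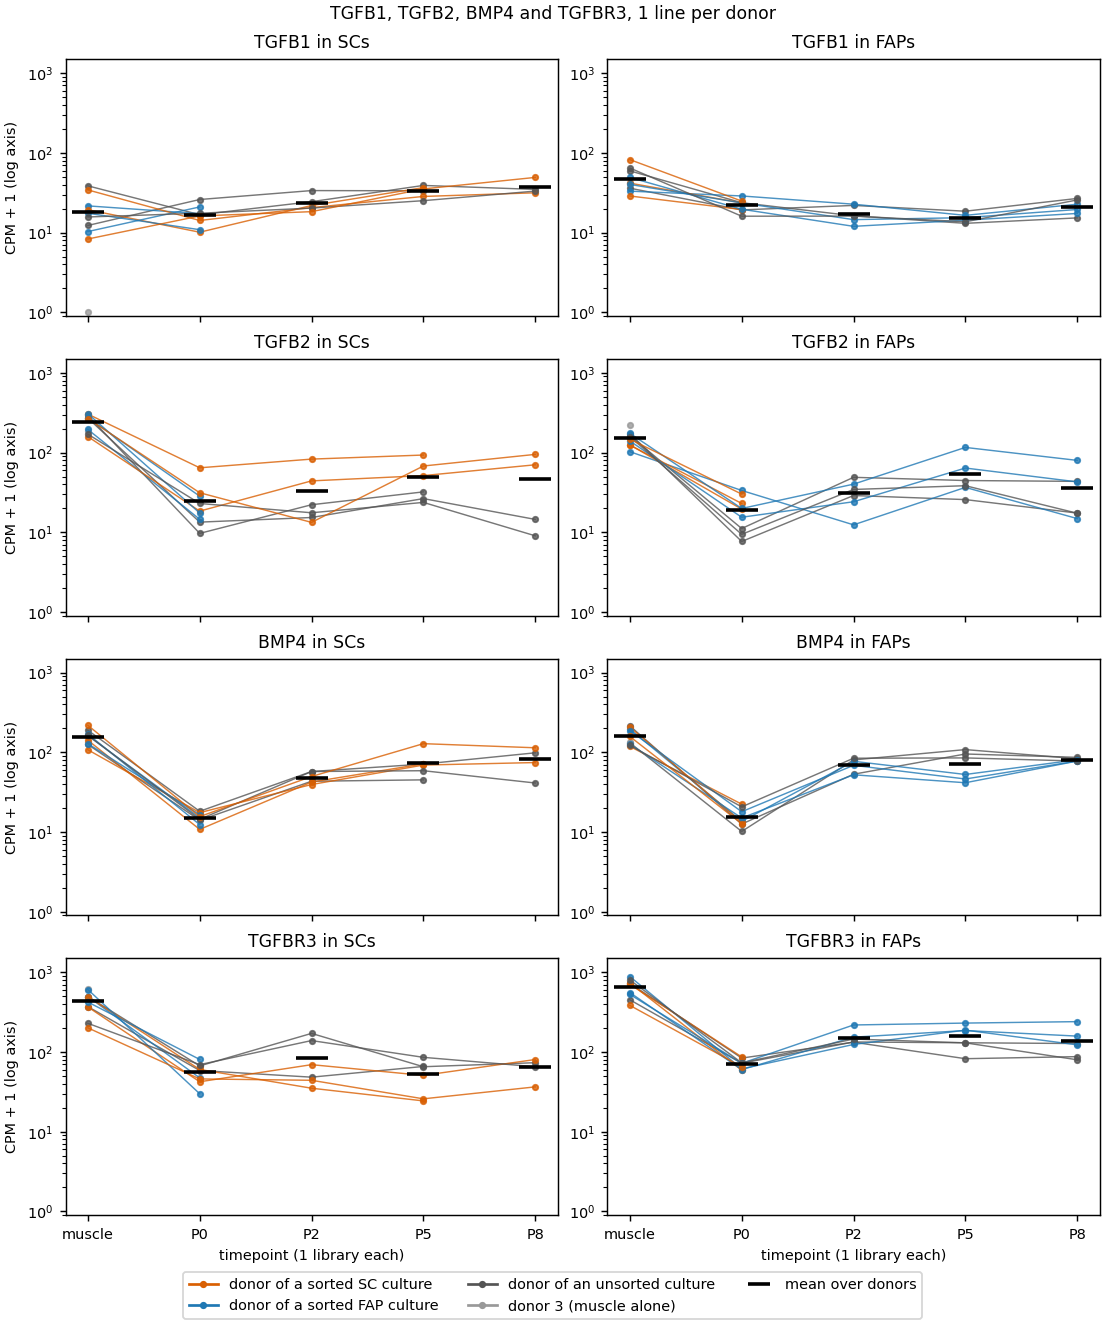
TGFB1, TGFB2, BMP4 and TGFBR3 in SCs and FAPs from muscle to passage 8, as CPM plus 1 on a log axis, with a line per donor coloured by culture and black bars for means. TGFB2, BMP4 and TGFBR3 drop from muscle to passage 0 in every donor of both types, and BMP4 climbs again to 68.2 CPM in FAPs and 47.3 CPM in SCs at passage 2.

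The sorted cultures at passage 2 gave a comparison of whole cultures that did not use the annotation. Each SC culture (98.3% to 99.4% annotated SCs) and each FAP culture (2.09% to 10.4% annotated SCs) was summed over all its cells, with 3 donors against 3 other donors. Of 7 tested members 3 were called, all lower in the SC cultures, beside 18.2% of all genes and 11.2% called lower. TGFBR3 was 34.5, 43.6 and 68.7 CPM in the SC cultures and 120.2, 148.5 and 215.8 CPM in the FAP cultures, a difference of -1.90 (SE 0.33, adjusted p = 0.00741). TGFB3 was 0.156, 0.295 and 0.370 CPM against 0.897, 1.13 and 1.31 CPM (-2.17, SE 0.40, adjusted p = 0.0086), on 24 and 78 UMIs in all. INHBA was 48.4, 49.9 and 51.9 CPM against 68.6, 99.7 and 117.8 CPM (-1.10, SE 0.19, adjusted p = 0.00723), and without FAP donor 4 the difference was -0.95, under the fold threshold. None of these 3 genes overlapped between the cultures. They were picked as called with 3 donors a side, and the share of all genes without overlap was not counted, so this adds nothing about the members. For INHBA the order of the annotated types inside a culture was the reverse of the order of the cultures. The SCs inside the FAP cultures (163 cells) had 143, 238 and 254 CPM beside 65.4, 89.9 and 115 CPM in the FAPs there, and the FAPs inside the SC cultures (2 donors with at least 10 of them) had 29.3 and 36.8 CPM beside 48.6 to 52.1 CPM in the SCs. In the unsorted cultures SCs had 86.5, 108 and 109.8 CPM and FAPs 66.3, 83.3 and 86.1 CPM. These orders inside cultures were not tested.

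BMP4 also did not overlap (38.3, 41.2 and 48.6 CPM in SC cultures, 51.4, 66.5 and 72.0 CPM in FAP cultures), but its difference of -0.74 (SE 0.15, adjusted p = 0.0132) was under the fold threshold. FST went the other way, with 96.5, 247.4 and 270.6 CPM in SC cultures and 49.9, 93.1 and 118.8 CPM in FAP cultures, and its groups overlapped. The difference of 1.06 (SE 0.45, adjusted p = 0.114) was not called, though DESeq2 called it (1.08, adjusted p = 0.0374), as did edgeR without SC donor 6 (1.40, adjusted p = 0.0337). TGFB1 (0.19) and TGFB2 (0.73, SE 0.71, adjusted p = 0.463) did not differ beyond their spread.

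**Figure D5:**
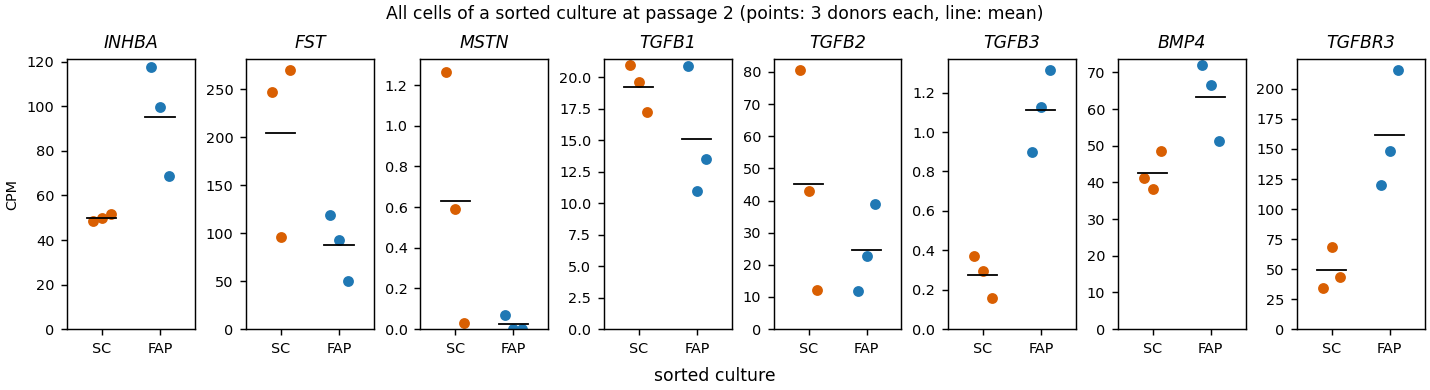
CPM of the 8 genes in the sorted SC cultures and the sorted FAP cultures at passage 2, summed over all cells of a donor; points are the 3 donors of each and lines are means. TGFBR3, INHBA, TGFB3 and BMP4 separate with the FAP cultures higher, and the FST points of the SC cultures (96.5 to 270.6 CPM) reach above those of the FAP cultures.

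The rest of the pathway was described with a list of 54 other ligand, receptor, inhibitor, SMAD and target genes found in the tables. It was chosen with earlier results of these data known. A list gene can also pass the filter through 1 high group, as CHRDL2 in SCs did through muscle (363 CPM pooled, and 0.0461 CPM at passage 0). Counts and medians of the list, here and below, therefore give no result on its direction. From muscle to passage 0, 29 of 37 tested genes were called in FAPs, 26 of them lower, beside 43.4% of all genes called, with a median log2 change of -2.36 beside 0.03 for all genes tested. All 8 receptor genes tested were lower. The largest falls were of LTBP4 (-10.47, SE 0.23), which anchors latent TGF-beta in the matrix, and the BMP inhibitor CHRD (-6.58, SE 0.21), and the largest rises were of GDF15, a stress-induced ligand (3.40, SE 0.80), and THBS1, an activator of latent TGF-beta (1.88, SE 0.38). In SCs 4 genes rose and 7 fell of 22 tested, beside 34.3% of all genes called, led by the BMP inhibitor CHRDL2 (-11.99, SE 0.59) and LTBP4 (-5.78) on the lower side and LTBP2 (6.16, SE 0.61) and DCN (2.72, SE 0.46) on the higher. DCN, which encodes the TGF-beta binding proteoglycan decorin, is also one of the FAP markers used above. Its level rose from 156 to 1171 CPM in SCs, from 87.2 to 1001 CPM in MPs, from 186 to 638 CPM in SMMCs and from 28.6 to 401 CPM in LECs, and fell from 19369 to 2858 CPM in FAPs. In VECs it was 238 and 273 CPM, without a call. In VECs 3 genes rose and 13 fell of 24, beside 35.1%, with THBS1 at 2.88 and with LTBP4 at -8.45 and the inhibitory SMAD7 at -5.38. SMMCs had 2 higher (DCN, 1.77, and THBS1, 1.57) and 10 lower of 17, beside 36.4%, led by LTBP4 (-7.92) and the ligand gene BMP2 (-3.31). MPs had 3 higher and 4 lower of 9, beside 34.6%, with THBS1 (4.58) and DCN (3.19) highest and the BMP target ID2 (-2.73) and the TGF-beta target TGFBI (-2.32) lowest. LECs had 2 higher and 7 lower of 15, beside 29.6%, with DCN at 3.68 and LTBP4 (-7.75) and the BMP target ID3 (-3.10) lowest.

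From passage 0 to passage 2, 16 genes rose and 4 fell in FAPs of 41 tested, beside 23.3% of all genes called, and the list had a median change of 0.53 beside 0.04 for all genes. They were led by the TGF-beta target CCN2 (3.80) and CHRD (3.40) among those that rose and BMP7 (-3.64) and GDF15 (-1.83) among those that fell. Of the binding proteins and inhibitors 8 of 12 tested rose and 0 fell, and of the other ligands 1 of 4 rose and 2 fell. In SCs 5 rose and 1 fell of 38, beside 8.73% of all genes called, with a median of 0.09 beside -0.02 for all genes and with CCN2 at 3.06, THBS1 at 2.84 and LTBP1 at -3.13. In later passages the BMP inhibitor GREM1 was the gene called higher in FAPs, at passage 5 (2.58, SE 0.63, edgeR adjusted p = 0.0165; 1 of 42 called, beside 3.34%) and at passage 8 (3.54), where the BMP target ID1 was called lower (-2.08; 2 of 41 called, beside 1.12%). In SCs at passage 5, edgeR called 0 of 38 (9 at an unadjusted p under 0.05, 2 by DESeq2), beside 0.195%. In the sorted cultures 6 genes were higher and 14 lower in SC cultures of 44 tested, beside 18.2% of all genes called, with BMP7 (4.09) and ID1 (2.33) highest and the type I receptor gene ACVRL1 (-7.53) and LTBP4 (-3.65) lowest.

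Genes with the most similar profile were sought among 11090 genes by Pearson's r of log2 levels over 19 pairs of cell type and timepoint, which share donors, libraries and depth. The profile of INHBA was most like that of FST (r = 0.93), HSPA12A (0.91) and AEBP1 (0.90), and that of FST most like FN1 (0.94), INHBA (0.93) and HSPA12A (0.92). For TGFB1 the closest gene was ARHGAP26 (0.90), for TGFB2 RIMKLB (0.95), for TGFB3 FRMD3 (0.91), for BMP4 AMOTL2 (0.90) and for TGFBR3 GABRE (0.90). MSTN was below the minimum level for this description.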

How the data were processed

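Single-cell 3′ RNA-seq (Chromium v3.1) of pooled donors was aligned and counted by the authors with Cell Ranger 6.0.1, donors were assigned by genotype and cells filtered, clustered and annotated by them. The deposited raw UMI count per gene and cell was used with the deposited cell table, of which 12 further columns of per-cell values and the authors' transformed table were not used. Repeat sequencing runs of a library counted as 1 library. No further cells were removed, and doublets were not called again.

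Counts were summed per donor, cell type and timepoint (at least 10 cells) and tested with the edgeR 4.0.16 quasi-likelihood F test in R 4.3.3 (TMM, filterByExpr, robust), adjusted by Benjamini-Hochberg over all genes tested. Genes were called at adjusted p under 0.05 and an absolute log2 fold change over 1, and differences of changes at adjusted p alone. Standard errors were derived from the F statistic. Passaged FAPs were taken from FAP and unsorted cultures, and SCs from SC and unsorted cultures. Members filtered out were compared by exact sign-flip permutation tests over donors, added after their values were seen. Library totals ranged from 20977722 to 252316585 UMIs, and totals and intervals cover counting error only. Scripts were tested on simulated counts.

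The members, the list of 56 pathway genes (54 in the tables) and the tests were chosen with earlier results of these data known. Named genes were the 8 members, up to 2 called list genes of largest change per direction and comparison, and the genes of most similar profile (mean level over 10 CPM in a type); a list gene this rule named is not reported here. The same animals appeared at successive timepoints: same-donor deviations correlated with a median of 0.303 in FAPs and 0.246 in SCs between passages 2 and 0, and 0.458 and 0.446 in FAPs between passages 5 and 2 and passages 8 and 2, but 0.069 and 0.015 between passage 0 and muscle. Donor as a block, DESeq2 1.42.0, no filter, at least 30 cells, thinning and leaving out single donors were the alternatives.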

Additional observations from a re-analysis of the deposited data

Results flagged for a closer look

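Of 96 groups of 4 to 10 donors, 8 held a donor far from the others by Dixon's ratio, where chance alone gives about 1 in 20. Among abundant cells, BMP4 in SCs at passage 5 was 127 CPM in donor 10 (others 44.1 to 70.6), TGFB2 in SCs at passage 0 was 63.4 CPM in donor 5 (others 8.69 to 30.3), and TGFBR3 in FAPs at passage 2 was 217 CPM in donor 8 (others 123 to 152). Among rare cells, TGFB3 in muscle SMMCs was 519 CPM in donor 9 (26 cells, 51 UMIs; others 9.58 to 223) and INHBA in SMMCs at passage 0 was 129.9 CPM in donor 7 (36 cells; others 50.2 to 84.2). In the 20 MPs of donor 10 at passage 0, FST was 76.0 CPM (14 UMIs; others at most 7.28) and BMP4 43.4 CPM (8 UMIs; others at most 14.6). TGFBR3 in muscle lymphocytes was 189 CPM in donor 6 (15 cells, 11 UMIs; others at most 94.3).

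In the edgeR interaction test of the change from muscle to passage 0, the FAP change minus the VEC change was -1.71 for TGFB1 and -0.94 for TGFBR3 (adjusted p = 8.6e-08 and 0.00206), both of which passed the filter in each type alone. TGFBR3 passed it in VECs through muscle, where it was high. The test also called FST against VECs (-1.94, adjusted p = 0.0440) and INHBA (-2.78, 0.0439), FST (-3.17, 0.00467) and TGFB1 (-0.98, 0.0177) against SCs, but these passed the filter through FAPs alone. Of them, INHBA against SCs and FST against VECs were not called with donor as a block (edgeR adjusted p = 0.0785 and 0.0609) or with no filter (0.0854 and 0.0975).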

How the results depend on the processing

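Of 382 member changes recomputed under the alternatives, 366 kept the call, 11 lost it and 5 gained it. Of the changes called in either fit, 0 turned direction. A turn of direction in a change called in neither fit was counted as kept. Those that changed stand beside the results they touch, and no other member call changed with donor as a block. With no filter on low counts the number of genes called from muscle to passage 0 was 6925 in FAPs (3997 with the filter), 5286 in SCs (1789), 5030 in VECs (2071), 4216 in SMMCs (1257), 3389 in MPs (1003) and 1863 in LECs (899), and 1473 in SCs at passage 2 (865). Thinning to the smallest UMI total gave 1609, 510, 1154, 512, 462 and 327 in the same types, 519 in SCs at passage 2, 60 in FAPs at passage 8 (124) and 6 in SCs at passage 5 (21). At least 30 cells gave 2177 in SMMCs. DESeq2 gave 211 in FAPs at passage 8 and 93 in SCs at passage 5, and donor as a replicate block 217 and 246. Leaving out 1 donor gave 856 to 935 in LECs and 1673 to 2605 in the sorted cultures. The cause of these shifts was not tested, except that no filter tests more genes and thinning fewer. Scaling by TMM factors moved 11 of 152 levels by more than 1 SD, 10 of them in cultured FAPs. At least 30 cells could not be used in MPs and LECs. No paired analysis was possible because the donors differ in the sorted cultures. Low UMI counts limit what can be said of MSTN everywhere and of INHBA and FST in muscle SCs.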

Other observations

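Cell types too rare for a comparison also held members of the family. In muscle, 23 tenocytes had 155 TGFBR3 UMIs of 141916 (1092 CPM pooled over donors) and 18 FST UMIs (127 CPM), and 45 myocytes had 20 TGFBR3 UMIs of 166249 (120 CPM) and 9 each of FST and TGFB2 (54.1 CPM).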
